A study of Mus musculus with 4 samples.

Results

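In retinal endothelial cells of mice labelled Zeb1 knockdown, 991 stretches of chromatin inside protein-coding genes carried a peak of accessibility in both libraries, and no peak was listed there in either control library. They lay in 880 host genes, among them the integrin genes Itga9 and Itgb3, the actin regulator Shroom3, the laminin gene Lamb1 and the adherens junction gene Cdh1. The assay was ATAC-seq, which maps open chromatin by where a transposase can insert adapters, on 2000 cells per library that were sorted by FACS from mouse retina. The 4 libraries, all from C57BL/6 mice and labelled P16, were 2 from mice of genotype control and 2 from mice of genotype Zeb1 knockdown, which the sample titles call Zeb1-CKO. The allele, the promoter that drives any recombinase, and whether animals were pooled are not given in the sources used here.

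To find these regions, the authors' 4 peak lists were merged where peaks overlapped or touched, which gave 25263 regions on the 19 autosomes and X. A library held a region if it had a peak in it. Members had to be held by both knockdown libraries and by neither control, to overlap the body of a protein-coding gene, and to lie more than 1 kb from any end of a protein-coding gene. They made up 991 of all 25263 regions and 11.3% of the 8782 regions that lie inside gene bodies. Over all regions, 10.1% had the same pattern of libraries. Members were thus chosen by the presence and absence of peaks in all 4 lists, so counts below that restate this choice are descriptions without a test.

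Zeb1 is a zinc-finger transcription factor that binds E2-box sequences and is best known as a repressor of epithelial genes. Open chromatin inside a gene body usually marks an enhancer in an intron or an alternative start of transcription. In the endothelium of the growing retina such elements serve genes for junctions, adhesion to the basement membrane, and the Notch and TGF-beta pathways. In bulk samples, fewer open copies per cell and fewer cells with an open copy cannot be told apart.

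Sequences could be shown for members that overlap an annotated start of transcription within their host gene. The table of starts, from RefSeq on GRCm38.p6 (the coordinates of mm10), gives 300 bases per start, 250 before it and 50 after. It held the hosts of 778 of the 991 members, and 90 of these members overlapped a start window of their own host. The following 5 were chosen as the best-ranked pair (Rfc1, and Eps8l1, picked after its values were seen) and 3 hosts from the gene lists described further on. These 3 were not taken by rank. The list host Arhgef7, with 0 E2-boxes in its window, ranked 118 among members, ahead of Map3k1 at 298 and Kcne3 at 602. Capitals mark the E2-box, CAGGTG or its reverse complement CACCTG. All windows shown but that of Tjp1 hold it, so they do not represent the 90, of which 25 (27.8%) had one.
Rfc1, chr5:65335590-65335889, minus strand: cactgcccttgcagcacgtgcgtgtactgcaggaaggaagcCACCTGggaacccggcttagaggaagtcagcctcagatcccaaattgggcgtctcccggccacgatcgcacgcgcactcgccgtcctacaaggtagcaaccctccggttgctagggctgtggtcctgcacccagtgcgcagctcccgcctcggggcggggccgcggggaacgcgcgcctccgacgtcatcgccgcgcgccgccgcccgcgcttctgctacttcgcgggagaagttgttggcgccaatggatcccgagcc
Eps8l1, chr7:4464485-4464784, plus strand: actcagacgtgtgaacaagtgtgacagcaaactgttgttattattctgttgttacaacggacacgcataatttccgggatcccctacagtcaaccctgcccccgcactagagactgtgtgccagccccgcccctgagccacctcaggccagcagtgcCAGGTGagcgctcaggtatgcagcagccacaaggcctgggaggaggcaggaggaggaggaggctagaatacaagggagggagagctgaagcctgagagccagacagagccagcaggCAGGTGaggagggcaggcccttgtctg
Map3k1, chr13:111808944-111809243, minus strand: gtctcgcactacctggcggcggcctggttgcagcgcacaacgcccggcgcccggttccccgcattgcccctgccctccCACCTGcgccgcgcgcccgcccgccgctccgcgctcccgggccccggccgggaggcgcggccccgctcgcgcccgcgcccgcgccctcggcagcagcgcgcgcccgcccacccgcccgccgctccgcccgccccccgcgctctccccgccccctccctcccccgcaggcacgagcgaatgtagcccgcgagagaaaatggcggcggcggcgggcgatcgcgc
Kcne3, chr7:100178433-100178732, plus strand: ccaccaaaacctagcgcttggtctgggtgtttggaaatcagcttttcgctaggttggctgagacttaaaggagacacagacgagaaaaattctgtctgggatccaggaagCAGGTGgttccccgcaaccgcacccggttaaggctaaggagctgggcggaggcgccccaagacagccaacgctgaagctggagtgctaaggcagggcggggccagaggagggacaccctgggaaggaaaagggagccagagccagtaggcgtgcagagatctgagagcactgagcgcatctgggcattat
Tjp1, chr7:65371195-65371494, minus strand: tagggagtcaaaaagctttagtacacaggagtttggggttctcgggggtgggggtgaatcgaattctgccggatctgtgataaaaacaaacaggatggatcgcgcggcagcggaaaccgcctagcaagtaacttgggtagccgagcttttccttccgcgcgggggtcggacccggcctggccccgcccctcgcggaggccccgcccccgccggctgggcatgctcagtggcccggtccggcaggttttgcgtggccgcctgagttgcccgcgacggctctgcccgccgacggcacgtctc

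The Rfc1 member, at a start of the gene for the large subunit of the clamp loader of DNA replication, covered 271 bases of this window. The window of Eps8l1, an actin-regulating relative of Eps8, lay wholly inside its member and held 2 E2-boxes. Map3k1, a kinase of the JNK pathway, had a window of 82.7% G and C with 1 E2-box. The Kcne3 window, at a start of a potassium channel subunit gene known from tip cells, held 1 E2-box, and its member covered 274 bases of it. The Tjp1 window, at an internal start of the tight junction scaffold gene ZO-1, held 0 matches and shared 277 bases with its member.

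Of the 90 members at a start of their own host, 25 (27.8%) had an E2-box in such a window, counted on both strands. The share was 21.5% for the 79 gene-body regions at starts held by the replicate 2 libraries alone, 25% for the 248 held by all libraries but control replicate 1, and 17.8% for the 326 held by all 4 libraries. Among all 17273 protein-coding genes in the table, 22.3% had an E2-box in at least 1 start window, and 20.2% of all 32851 windows had one. The median G and C content was 60.7% in the 107 windows under members, 64.0% in the 394 windows under regions held by all 4 libraries and 56.7% in all windows of protein-coding genes. Counted by window, 32 of the 107 under members held an E2-box (29.9%), against 19.9% of the 21044 windows of protein-coding genes. Under gene-body regions of knockdown replicate 2 alone the window share was 25.7%. It was 24.1% for those missing control replicate 1 alone, 20.5% for the replicate 2 libraries alone and 15.2% for all 4. The member shares were the highest given in both counts, with 25% and 25.7% the next, and the differences were not tested. Windows of 1 gene can overlap and repeat the same bases. A match is a description of letters and not a bound site.

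The libraries differed in how many gene-body peaks they listed. Control replicates 1 and 2 held 1770 and 3807 gene-body peaks, and knockdown replicates 1 and 2 held 3542 and 6476. Control replicate 2 lay above knockdown replicate 1, so the groups overlapped. The means were 2788.5 ± 1440 and 5009 ± 2075 peaks (SD, n = 2 each), a difference that did not pass the two-sided exact permutation test (p = 0.667). Gene-body peaks covered 787 kb in control replicate 1, 1370 kb in control replicate 2, 1630 kb in knockdown replicate 1 and 2610 kb in knockdown replicate 2, without overlap of the groups, and the same exact test gave p = 0.33. That is the smallest value that 2 libraries against 2 allow, so no difference of this design can pass. Gene-body peaks made up 23.3% and 27.9% of the control lists and 25.9% and 32.6% of the knockdown lists. The whole lists ran from 7608 peaks in control replicate 1 to 19886 in knockdown replicate 2. The files give no read depth, so a closed site and a site with too few reads cannot be told apart.

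Of the 2873 gene-body regions held by both knockdown libraries, 991 (34.5%) had no control peak. A further 1073 were also held by control replicate 2 alone, 58 by control replicate 1 alone, and 751 by both. In the reverse direction, 20 of the 829 gene-body regions held by both controls had no knockdown peak, which is 2.41% of them and 0.228% of all gene-body regions. At gene ends, 764 of 7068 regions held by both knockdown libraries lacked a control peak (10.8%), and between genes 800 of 2116 did (37.8%). The gene-body share thus stood near the share between genes and above the share at gene ends, with no test of the difference. Within same-numbered pairs, 2618 gene-body regions were held by knockdown replicate 1 and not control replicate 1, against 840 the other way. For replicate 2 the counts were 3753 and 1063. Control replicate 2 and knockdown replicate 2, of unlike genotype, alone shared 816 gene-body regions. These were 9.29% of all gene-body regions, against 11.3% for members.

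**Figure D1:**
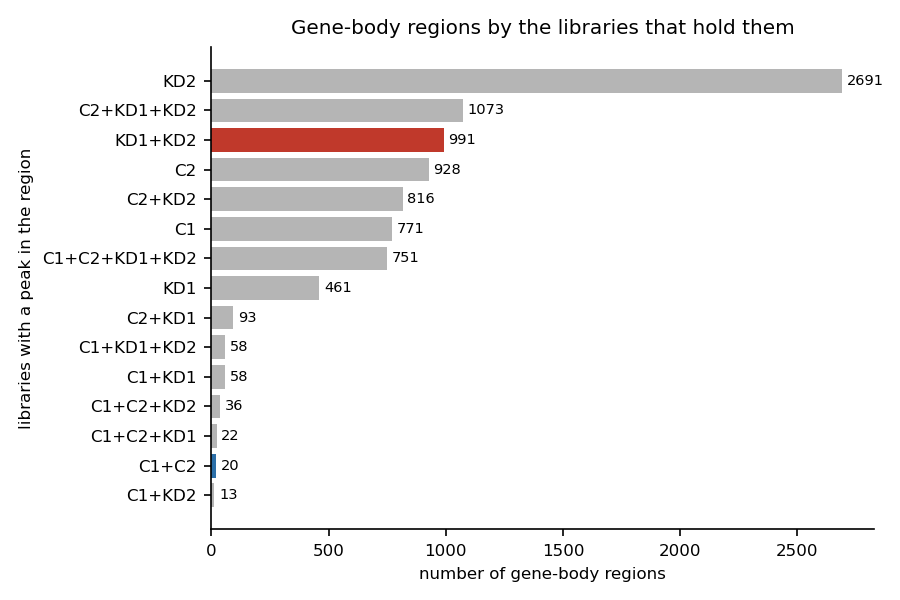
Number of gene-body regions (x axis) by the set of libraries with a peak in them (y axis), where C1 and C2 are the control and KD1 and KD2 the knockdown replicates. The 991 regions of both knockdown libraries (red) stand beside 20 of both controls (blue) and 816 of control replicate 2 and knockdown replicate 2. A further 2691 regions were held by knockdown replicate 2 alone.

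The count depended on the threshold and on single libraries. With a −log10 q of at least 3 in every list, 640 gene-body regions were knockdown-only and 4 control-only. When each list was limited to its 7608 strongest peaks, the length of the list of control replicate 1, the counts were 274 and 65. Without control replicate 1, they were 1049 and 948. Control-only then asked for no more than a peak in control replicate 2, which alone held 928 gene-body regions in the full comparison. Knockdown-only still asked for both knockdown libraries, so these counts are unlike.

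Most members stood in the lower part of at least 1 knockdown list. Ranked by −log10 q, their median percentile from the top was 69.7 in knockdown replicate 1 and 56.0 in knockdown replicate 2, against 62.2 and 59.8 for all gene-body peaks of these libraries. Both peaks stood in the top 50% of their lists for 169 members (17.1%) and in the top 10% for 2. The authors' fold enrichment over background had a median of 4.12 in knockdown replicate 1, with a range of 2.64 to 16.003 (Cntnap2), and of 4.85 in knockdown replicate 2, with a range of 2.72 to 14.3. The lowest −log10 q of a member peak, 1.03 at Pald1 in knockdown replicate 1 and 1.05 at C77080 in knockdown replicate 2, lay just inside the lists, whose lowest values were 1.01 and 1.03. In 382 members (38.5%) both peaks had a −log10 q of at least 3 while the whole control lists still held none there.

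The peaks of the knockdown libraries shared much of the region in most members, but not in all. Each library had a single peak in every member. At least 50% of the merged region was common to both peaks in 727 members (73.4%), and the median common share was 64.4%. The common share ranged from 0.474% to 100%. The median width was 435 bp, between the 354.5 bp of gene-body regions held by the replicate 2 libraries alone and the 694 bp of those held by all 4. Tns1, which encodes the focal adhesion protein tensin 1, had the widest member with 1990 bp, followed by the overlapping genes Cdh23 and Vsir with 1808 bp, the lipid scramblase gene Ano6 with 1775 bp, the deubiquitinase gene Usp2 with 1751 bp and the GABA receptor gene Gabbr2 with 1702 bp.

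Distances to control peaks are given as a description. Members hold no control peak by the rule that chose them, and the distances were not compared with those of other regions. The nearest peak of control replicate 2 was a median of 24402 bp away and that of control replicate 1 58195 bp away. A control peak lay within 5 kb of 143 members (14.4%) and within 1 kb of 9. The Epas1 member, in the gene for the hypoxia-inducible factor HIF-2 alpha, had a peak of control replicate 2 at 481 bp.

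**Figure D2:**
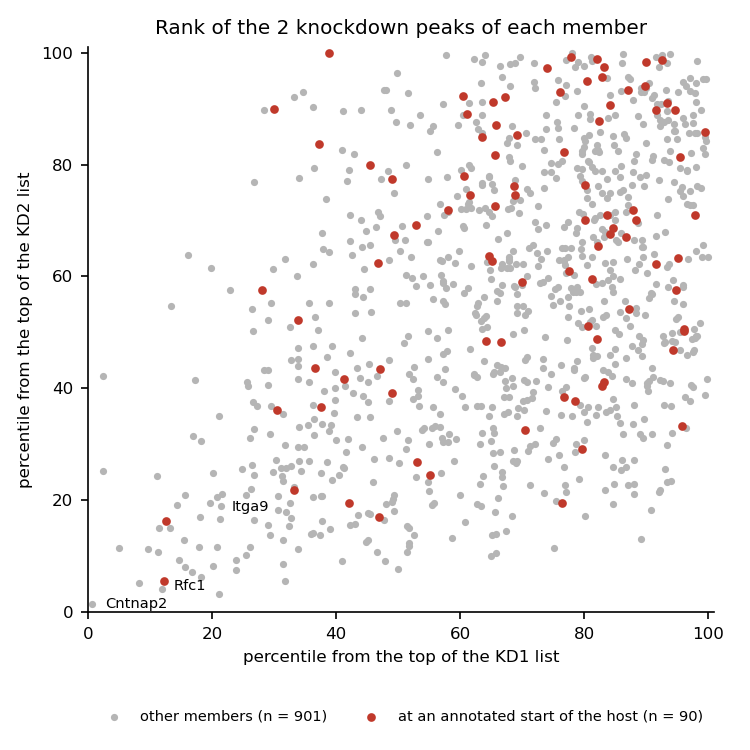
Percentile from the top of its list (0 is strongest) of each member's peak in knockdown replicate 1 (x axis) and knockdown replicate 2 (y axis), with the 90 members at an annotated start of their host in red and 901 others in grey. Points fill the weaker part of both lists, and the Cntnap2 member stands alone at 0.716 and 1.42.

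The best-ranked members lay in genes of varied function. At the top, a 231 bp region in Cntnap2, a neuronal adhesion gene of the neurexin family, at chromosome 6 from 46801912 to 46802142, had fold enrichments of 16.003 and 14.3 in the knockdown replicates. Its nearest control peaks were 792805 and 652214 bp away, and its start was the same base in both knockdown libraries. The second member lay in Man1a, a Golgi mannosidase gene, at chromosome 10 from 54026650 to 54027172, with fold enrichments of 7.80 and 9.38.

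Shroom3, which held 0, 1, 2 and 5 gene-body regions in control replicates 1 and 2 and knockdown replicates 1 and 2, and whose product drives apical constriction of epithelial cells, held the third member, with fold enrichments of 6.52 and 7.75. This region lay 85.6% of the way along the gene, and peaks of control replicates 1 and 2 were 280930 and 26774 bp away. Members in Nrde2, an RNA-processing gene, and Tspan14, a tetraspanin that escorts the protease ADAM10, followed. Both had a peak of control replicate 2 close by, at 1419 and 2267 bp. The next were in Ago2, the slicing Argonaute protein of small RNA silencing, with fold enrichments of 6.70 and 9.32, and in Rfc1, with 7.33 and 10.5.

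The members ranked 8 to 12 were in Srgap1, a GTPase-activating protein of the Slit and Robo pathway, Klhl3, an adaptor of a cullin ubiquitin ligase, Ldlrad4, a negative regulator of TGF-beta signalling, Wbp1l, and the phospholipase C gene Plcb4. Their fold enrichments ran from 5.74 to 7.25 in knockdown replicate 1 and from 7.26 to 9.03 in knockdown replicate 2. In all of these 12 members, peaks of the knockdown replicates stood within the top 15.6% of their lists.

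Members spread over the whole length of their hosts. For 766 members with 1 host whose strand is known, 21.0% lay in the first 20% of the gene counted from its 5′ end and 18.3% in the last 20%. The 606 gene-body regions held by all 4 libraries were placed toward the 5′ end, with 230 regions in the first part and 52 (8.58%) in the last. The 625 held by the replicate 2 libraries alone had 131 (21.0%) and 100 there. Members lay nearer to the replicate 2 regions than to those of all 4 libraries in these shares, and the differences were not tested.

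Their share at annotated starts followed the same order. Of the 778 members whose host is in the start table, 90 (11.6%) overlapped a start of the host, against 79 of 632 (12.5%) for the replicate 2 regions, 248 of 866 (28.6%) for regions missing control replicate 1 alone and 326 of 614 (53.1%) for those held by all 4. Among regions held by a single library the share ran from 0.842% in control replicate 1 to 9.09% in knockdown replicate 1. The 90 members at starts were wider than the other 901, some of whose hosts the start table does not hold, with medians of 550.5 and 430 bp. They also stood lower in the lists, with median percentiles of 76.3 and 68.9 against 69.2 and 54.9. Of those at starts with a known position, 46.6% lay in the first 20% of the gene.

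**Figure D3:**
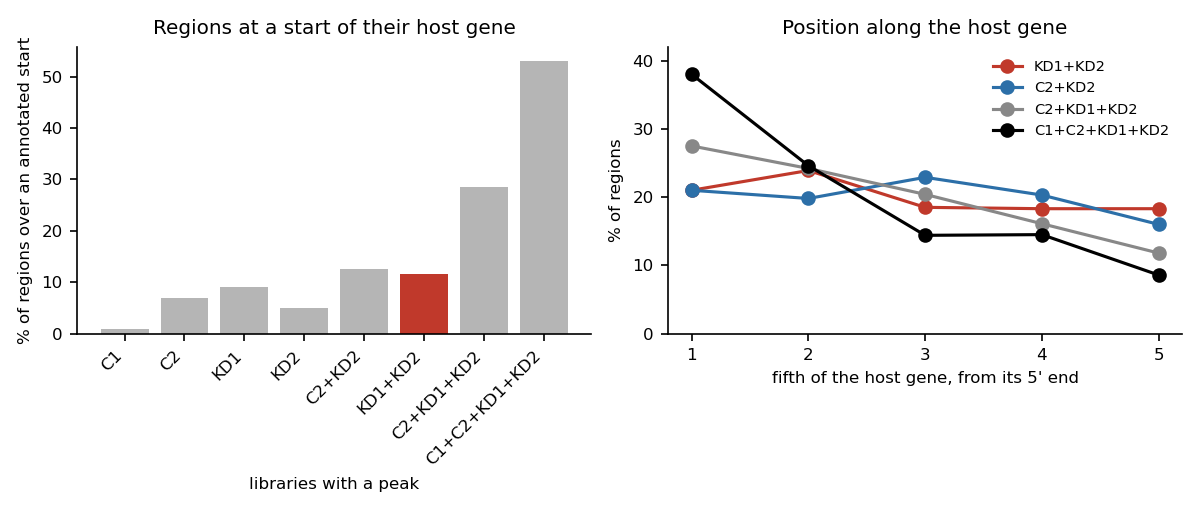
Left, percent of gene-body regions that overlap an annotated start of their host (y axis) by the libraries that hold them (x axis). Right, percent of regions (y axis) in each of 5 equal parts of the host gene from its 5′ end (x axis). Members (KD1+KD2, red) had 11.6% at starts and a flat course along the gene, while regions of all 4 libraries (black) had 53.1% at starts and went from 230 to 52 of 606 along the gene.

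Distance from gene ends ranged widely. The median distance was 16198 bp, 134 members lay within 3 kb of an end and 202 (20.4%) lay more than 50 kb from one. Among the farthest were members in the phosphodiesterase gene Pde4d at 625056 bp, in Cntnap2 at 499251 bp, and a pair in the oxidoreductase gene Wwox at 375572 and 303555 bp. Just inside the 1 kb limit were members in Lmnb1, Ints6l, Ptges, Cyp4f17 and the overlapping pair Chrd and Thpo, at 1005 to 1056 bp. Just outside it were knockdown-only regions at Srebf1, Cplx2, Eps8l3 and Agpat2, at 948 to 997 bp. The percentiles of the first 5 ran from 51.2 to 80.5 in knockdown replicate 1 and those of the other 4 from 53.0 to 90.6.

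Host genes were long. Their median length was 80 kb, against 58.0 kb for all 4731 protein-coding genes with any gene-body region and 17.3 kb for all 21627 protein-coding genes. Hosts made up 18.6% of the former and 4.07% of the latter. Long hosts were not particular to members. Counted per region, the median host length was 88.7 kb for members and 88.6 kb for regions of the replicate 2 libraries alone. For regions of a single library it ran from 85.6 kb (knockdown replicate 1) to 144 kb (control replicate 1). For regions of all 4 libraries it was 64.4 kb. A single member lay in 778 hosts, 84 had 2, 15 had 3, 2 had 4 and 1 had 5. In 449 hosts (51.0%) no control library had any gene-body region, and 106 hosts also had a gene-body region held by all 4 libraries. The share of 51.0% follows in part from the rule. Members hold no control peak, and in many hosts the member was the only gene-body region. It was not compared with the share in other genes.

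The 5′ ends of the hosts were compared with those of other genes. Of 696 hosts with a known strand, 172 (24.7%) had a region held by all 4 libraries, or several that together were, within 1 kb of the 5′ end. The same held for 22.4% of the 3045 other genes with a gene-body region. The 5′ end had a peak in the knockdown libraries alone, both of them, in 38 hosts (5.46%) against 4.53% of those other genes, and no peak in any library in 263 hosts (37.8%) against 46.0%. The shares with a peak in all 4 libraries or in the knockdown libraries alone stood near those of the other genes. The share without any peak was lower in hosts, and the differences were not tested.

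Cmip, an adaptor gene first known as c-Maf inducing protein, had 5 members, the largest number. Its body held 0 and 4 regions in control replicates 1 and 2, and 5 and 11 in the knockdown replicates. The 5 members had a fold enrichment of 3.07 to 4.19 in knockdown replicate 1 and 4.65 to 6.60 in knockdown replicate 2. Frmd4a, a scaffold of the Par polarity complex, had 4 members and held 1, 4, 7 and 9 regions in the same order of libraries. Arhgap26, which encodes a GTPase-activating protein, had 4 members and held 1, 5, 9 and 15.

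Hosts of 3 members, taken in order of members per length, began with the beta3 integrin gene Itgb3. It is 62.5 kb long and held 0, 1, 3 and 5 regions. Bfsp1, a lens filament gene, held 0, 1, 3 and 3, and the cytoskeletal scaffold gene Iqgap1 held 2, 3, 6 and 7. Entpd1, the ectonucleotidase CD39 of the vessel wall, held 1, 0, 3 and 4, and the tetraspanin gene Tspan18 held 0, 2, 4 and 5. Rftn1, a lipid raft gene, held 0, 2, 5 and 5, and Sh3pxd2a, the podosome scaffold Tks5, held 1, 1, 3 and 9. In each of these 10 genes, both knockdown libraries held at least as many regions as both controls, which the members they were chosen for help to fix.

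**Figure D4:**
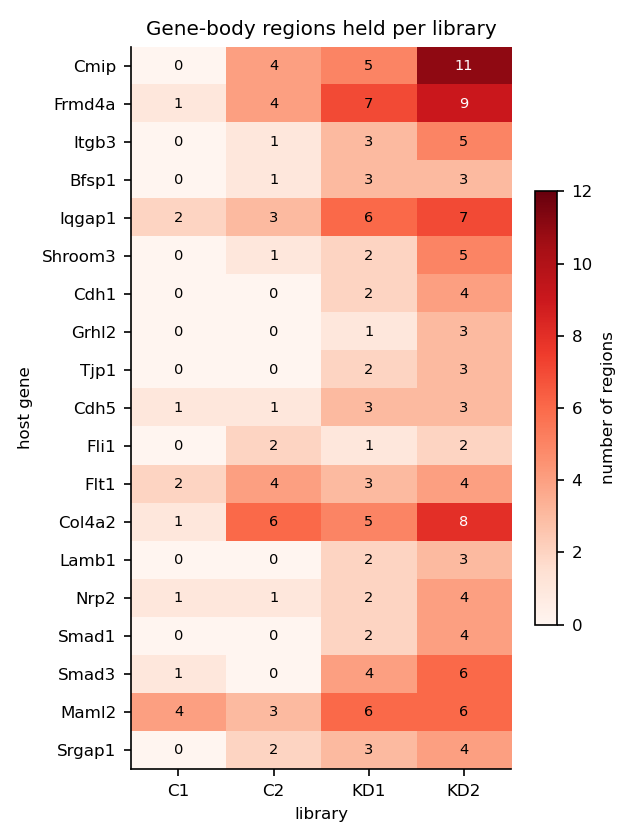
Number of gene-body regions with a peak in each library (columns) for 19 host genes (rows), members included. Cdh1, Grhl2, Tjp1, Lamb1 and Smad1 were at 0 in both controls, while Maml2 held 4 and 3 regions in them and 6 in each knockdown library.

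The hosts were then read against 19 gene lists with 564 genes, of which 76 (13.5%) were hosts. Counts are given beside the 4.07% of all protein-coding genes and the 18.6% of genes with any gene-body region, and long genes have more room for both. No list was tested, and the call is presence in 2 lists and absence in 2 others. Counts of listed genes per library follow how many regions each library held in all. Of all gene-body regions, control replicates 1 and 2 held 19.7% and 42.6%, and knockdown replicates 1 and 2 held 39.9% and 73.2%. A higher count in a library is thus no trait of a list by itself.

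Of 47 genes for integrins, focal adhesions and actin regulation, 18 were hosts, with 30 members. That is 38.3% of the list and 43.9% of its 41 genes with any gene-body region, and the median gene of the list was 144 kb long. Among the 47, gene-body regions were held by 18 and 28 in control replicates 1 and 2 and by 30 and 39 in the knockdown replicates. Itga9, the alpha9 integrin that binds tenascin and lymphatic ligands, had the best-ranked member of the list. Its fold enrichments were 6.68 and 7.49 at chromosome 9 from 118674853 to 118675107, the nearest control peaks were 72070 and 305443 bp away, and no control library had a region in the gene. Iqgap1 followed with members at 5.80 and 5.89, 3.80 and 5.24, and 3.66 and 4.92. The exchange factor Tiam1 held 1, 2, 6 and 8 regions in the 4 libraries, the Rac and Cdc42 exchange factor Arhgef7 1, 1, 3 and 3, and Dock1, an activator of Rac, 1, 1, 2 and 6. In Tiam1, both knockdown libraries lay above both controls by at least 4 regions. Its 2 members, present in both knockdown libraries and neither control by the rule, help to fix this gap.

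The 3 Itgb3 members lay at chromosome 11 from 104624762 to 104625488, from 104638868 to 104639250 and from 104640873 to 104641239. Fold enrichments were 4.11 and 4.62 for the first, 4.88 and 5.29 for the second, and 4.59 and 6.15 for the third. The first had a peak of control replicate 2 at 2214 bp, while the nearest peak of control replicate 1 to any of them was 155126 bp away. The low-coordinate end of Itgb3 was itself held by the knockdown libraries alone.

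Among 38 epithelial junction, polarity and identity genes, 6 were hosts (15.8%, and 33.3% of the 18 with any gene-body region). Per library, 4 and 9 of the 38 had a gene-body region in control replicates 1 and 2, and 10 and 14 in the knockdown replicates. Cdh1, which encodes E-cadherin, had 2 members, at chromosome 8 from 106615947 to 106616283 and from 106619495 to 106619986. Fold enrichments were 4.37 and 5.26 for the first and 4.19 and 5.13 for the second. The Cdh1 body held 0 regions in each control and 2 and 4 in the knockdown replicates, and the control peak nearest to either member was 98247 bp away. The Grhl2 member, in the gene of a grainyhead transcription factor of epithelia, had fold enrichments of 4.12 and 4.19 and its nearest control peak was 226730 bp away.

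Tjp1 and Myo5b complete the 5 best-ranked hosts of this list with Shroom3. Tjp1 held 0, 0, 2 and 3 gene-body regions, and its members were at fold enrichments of 4.13 and 3.99, at the start shown above, and of 4.05 and 6.00. Myo5b, the motor of apical recycling, held 1 region in each library, which was the member in both knockdown libraries and lay elsewhere in the gene in the controls. The splicing regulator Esrp2, named here after its values were seen, was the other host. The list was drawn up with earlier results of these data known, so its count is no independent support.

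Of 37 endothelial identity genes, 9 were hosts (24.3%, and 36.0% of the 25 with a gene-body region). Gene-body regions were held by 10 and 21 of the 37 in the controls and by 20 and 21 in the knockdown replicates. Cdh5, the gene of VE-cadherin, had members at chromosome 8 from 104110680 to 104111132 and from 104115323 to 104115778. Their fold enrichments were 4.45 and 4.75, and 3.48 and 3.53, and control peaks lay 5880 to 9043 bp away. The Cdh5 body held 1, 1, 3 and 3 regions, and its low-coordinate end was held by all 4 libraries. Fli1, an ETS factor, held 0, 2, 1 and 2 regions, so control replicate 2 had as many as knockdown replicate 2. The VEGF receptor gene Flt1 held 2, 4, 3 and 4, the forkhead gene Foxo1 held 1, 0, 1 and 2, and the ETS factor gene Elk3 held 0, 1, 1 and 3. Of the 9 hosts in this list, 1 lacked any gene-body region in the controls, against 51.0% of all 880 hosts. The list of growth factor receptor and kinase genes, described below, had 0 such hosts. These differences were not tested.

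Of 31 Notch and arteriovenous genes, 8 were hosts (25.8%, and 57.1% of the 14 with a gene-body region). Per library, 4 and 10 of the 31 had a gene-body region in control replicates 1 and 2, and 13 and 14 in the knockdown replicates. Maml2, a coactivator of Notch, held 4, 3, 6 and 6 regions with 2 members. The fringe gene Lfng, which modifies Notch receptors, held 0, 0, 1 and 1, and the ligand gene Jag1 held 0, 1, 2 and 2. The Jag1 member had control peaks at 1756 and 1691 bp. The guidance receptor gene Unc5b held 0, 2, 1 and 2, and Dach1, a regulator of arterial growth, held 0, 0, 1 and 1 with a peak of control replicate 2 at 1355 bp. The receptor gene Notch3 was also a host, with peaks at percentiles of 93.9 and 99.8, near the end of both knockdown lists. By the weaker percentile of their best member, the 8 hosts ran from 67.0 at Maml2 to 99.8 at Notch3, with Dach1 at 98.1. The 57.1% thus rests on members with a peak in the lower part of at least 1 knockdown list. This was not particular to the Notch list, as the median weaker percentile of all 991 members was 77.0. The best members of Cdh1 and Lamb1, from other lists, stood at 60.8 and 65.3.

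Of 28 genes for sprouting, tip cells and basement membrane, 7 were hosts (25%, and 31.8% of the 22 with a gene-body region). Gene-body regions were held by 5 and 14 of the 28 in the controls and by 15 and 21 in the knockdown replicates. Lamb1, the beta1 laminin chain, had 2 members and held 0, 0, 2 and 3 regions, with the nearest control peak 199291 bp away. The neuropilin gene Nrp2, a coreceptor for VEGF-C and semaphorins, held 1, 1, 2 and 4. The collagen gene Col4a2 held 1, 6, 5 and 8, so control replicate 2 exceeded knockdown replicate 1. The laminin gene Lamc1 held 0, 2, 2 and 2, and Kcne3 held 0, 0, 1 and 1.

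The mesenchymal, TGF-beta and BMP list had 3 hosts among 39 genes (7.69%, and 15.0% of the 20 with a gene-body region, near the 18.6% of all such genes). Smad1, which carries BMP signals, held 0, 0, 2 and 4 regions with 2 members at fold enrichments of 4.16 and 4.89, and of 4.03 and 4.64. Smad3, which carries TGF-beta signals, held 1, 0, 4 and 6 with 2 members. The third host was the ligand gene Bmp4, which held 0, 0, 1 and 2. The barrier and Wnt list had 1 host among 32 genes (3.12%, and 5.88% of 17), the Wnt effector gene Tcf7, whose member stood at fold enrichments of 5.18 and 6.05 with 0 control regions in the gene.

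Guidance, kinase and chromatin genes were hosts as well. Of 34 axon guidance genes, 6 were hosts (17.6%, and 24.0% of the 25 with a gene-body region), with Srgap1 at 0, 2, 3 and 4 regions and the semaphorin genes Sema3a and Sema3f at 0, 0, 1 and 1 each. Sema6d held 1, 2, 2 and 4 and the ephrin gene Efna5 0, 0, 1 and 1. Of 44 growth factor receptor and kinase genes, 7 were hosts (15.9%, and 25.9% of 27), and each had a control region elsewhere in its body. They were led by Plcb4, the protein kinase C genes Prkca and Prkce, the neurotrophin receptor gene Ntrk2 and Map3k1. Of 32 chromatin regulators and Zeb1 corepressors, 7 were hosts (21.9%, and 35.0% of 20). Among them, the histone deacetylase genes Hdac4 and Hdac7 held 1, 2, 2 and 3, and 1, 3, 3 and 4. Arid1a, a subunit of the BAF remodeller, held 2, 2, 3 and 3, and the methyltransferase gene Kmt2d held 0, 1, 1 and 1.

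Inflammatory, hypoxic and early response genes gave 4 hosts. The counts were 1 of 27 genes for inflammation and NF-kB (Irf2), 2 of 24 for hypoxia and glycolysis (Epas1 and the phosphofructokinase gene Pfkp) and 1 of 26 for immediate early and AP-1 genes (Nr4a2). These are 3.7%, 8.33% and 3.85% of the listed genes, and 8.33%, 14.3% and 12.5% of the 12, 14 and 8 listed genes with any gene-body region. With so few genes these shares are not set apart from the 4.07% and 18.6% of all genes.

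Markers of other retinal cells gave 2 hosts, in lists with few gene-body regions in any library. There were 0 hosts among 32 rod and cone genes, 18 Muller glia and astrocyte genes, 18 leukocyte and microglia genes and 12 pigment epithelium genes. Prkcb, a marker of rod bipolar cells, was 1 host among 32 genes of other retinal neurons, and Notch3 was 1 among 16 genes of pericytes and smooth muscle. Genes with any gene-body region numbered 12 for rods and cones, 11 for other neurons, 3 for leukocytes and microglia, and 2 each for Muller glia and astrocytes, pigment epithelium, and pericytes. For the lists with 2 or 3 such genes, a count of 0 or 1 shows nothing against a background of 18.6%. Gene-body regions in photoreceptor genes were present in every library and followed the replicate number, in 5 and 11 of 32 genes in control replicates 1 and 2 and in 3 and 10 in knockdown replicates 1 and 2. The part of such cells in the members was not tested. For the other neuron list the counts were 6, 4, 6 and 8 of 32, and for the remaining lists 0 to 2 in every library.

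**Figure D5:**
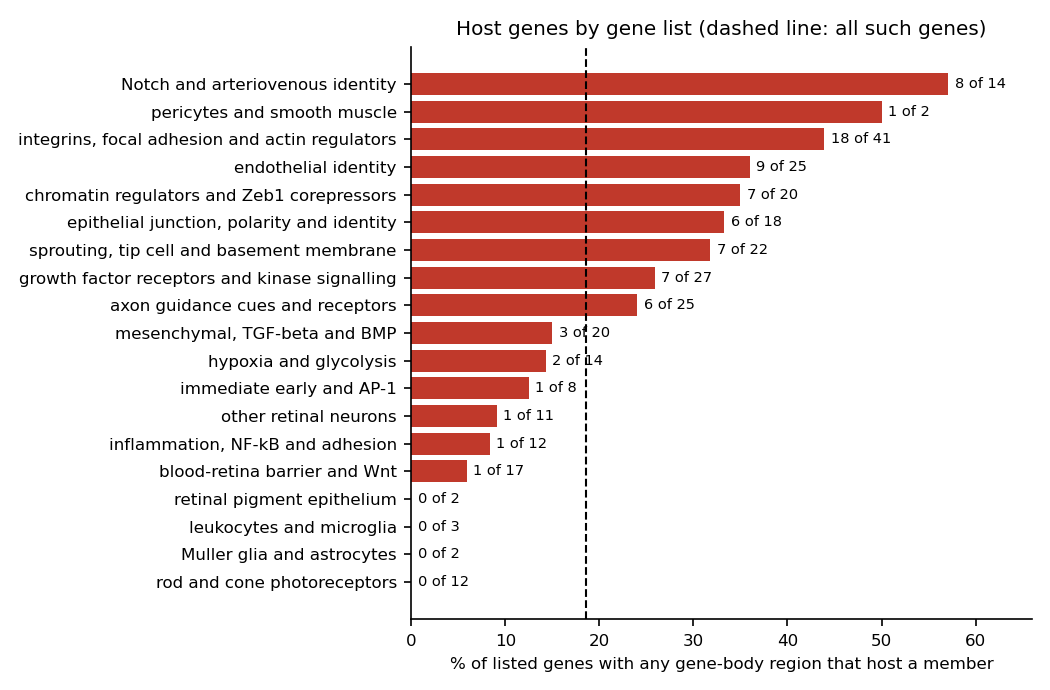
Percent of the listed genes with any gene-body region that host a member (x axis) for 19 gene lists (y axis), with the numbers beside each bar and the 18.6% of all such genes as a dashed line. The Notch and integrin lists reach 57.1% and 43.9%, the photoreceptor list is at 0, and the pericyte bar rests on 1 of 2 genes. The weaker percentiles of the Notch hosts ran from 67.0 to 99.8, and the median of all members was 77.0.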

How the data were processed

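ATAC-seq peak lists of 4 libraries were used, 2 control and 2 Zeb1 knockdown, grouped by sample titles. Per the submitters' processing notes, reads were processed on mm10 with MACS2 2.1.1, bedtools 2.26.0, SAMtools 1.3, Picard 2.9.2, Bowtie2 2.3.2 and Trimmomatic 0.36 (listed without role, order or setting). Any shift of reads for the transposase, and the filter applied to peaks, are not given in the sources used here. The deposited lists were called per library and give each peak's start and end, a fold enrichment (a ratio over the library's own background), −log10 p and −log10 q values, and a score derived from the −log10 q. As each list has its own background, deposited fold and −log10 q values were used to describe, rank and filter peaks within a list.

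Regions, holders and classes were computed with Python 3.11.15, pandas 2.3.3 and numpy 2.4.6, and tested on simulated data. Gene bodies, ends and start windows came from RefSeq tables on GRCm38.p6, without exons. Start windows covered 17273 of 21627 protein-coding genes. No genome sequence was used here, so motifs were searched in start windows only. The exact permutation test used scipy 1.17.1. With n = 2 no region was tested, and nothing in the labels says whether replicates are separate animals, so spread may be technical.

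Named genes were the 12 best-ranked members (by the weaker percentile), 10 hosts with most members, up to 5 hosts per list, the 5 widest and 5 farthest members, and 5 on each side of the 1 kb limit, except a few that are not reported here. Members and lists were chosen with earlier results of these data known.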

Additional observations from a re-analysis of the deposited data

How the results depend on the processing

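The 991 knockdown-only gene-body regions, in 880 hosts, and the 20 control-only ones stayed within 1.5 times when 50% of a region had to be covered, peaks within 1 kb were merged, 3 kb from gene ends was required, ends of every gene counted, or peaks over 2000 bp were dropped. Under a limit of 3 on the −log10 q the counts were 640, 578 hosts and 4, and 382 members were among the 640. With the 7608 strongest peaks per library they were 274, 264 hosts and 65, with 157 members overlapped. With that q limit in the knockdown lists alone, chosen after seeing the data, 382 regions in 356 hosts remained. Leaving out each library gave 1049 to 3698 regions, 926 to 2536 hosts and 43 to 948 control-only regions. The counts were 2065 regions, 1619 hosts and 791 control-only without control replicate 2, 3698, 2536 and 43 without knockdown replicate 1, and 57 control-only without knockdown replicate 2. Without control replicate 1 the control-only count was 948. With 1 library left out, that group needs 1 peak alone, so such counts are unlike. Of the 1991 gene-body regions held by exactly 2 libraries, members were 49.8%. No region was tested, so the replicate block was read as counts within same-numbered pairs, where pair 1 alone gave 2618 knockdown-only regions and pair 2 alone 3753. The motif search in whole regions was not run. Depth is unknown, which limits every absence.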

Other observations

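Members were found on every chromosome studied. They made up 8.96% of the gene-body regions of chromosome 13 and 14.0% of those of chromosome 15, the lowest and highest shares, and the X chromosome had 9 members among 99 gene-body regions (9.09%).

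Besides the 90 members at a start of their own host, 15 overlapped only a start window of another gene. Of the other motifs searched in the windows under the 90 (both strands), the AP-1 motif TGANTCA was found for 7 members (7.78%, against 8.19% of all protein-coding genes in the table), the ETS core CCGGAA for 18 (20% against 21.2%) and the TEAD motif GGAATG for 5 (5.56% against 15.4%). The ETS core was found for 30.1% of the 326 regions at starts that all 4 libraries held. The E-box CANNTG, which includes the E2-box, was found for 65 members (72.2% against 72.1%), the GATA motif AGATAA for 2 (2.22% against 11.3%) and the SOX motif ACAAAG for 12 (13.3% against 19.2%). The genes in the table are a mixture of start types, and the member windows have more G and C, with medians of 60.7% and 56.7%. The part of base composition in these shares was not tested.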
